A study of Mus musculus with 18 samples.

Results

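The genes described here encode the laminin-binding integrins and their closest membrane and cytoplasmic partners in mouse quadriceps muscle. The set was chosen by gene symbol and holds the alpha subunits Itga3, Itga6 and Itga7, the beta subunits Itgb1 and Itgb4, the non-integrin laminin receptor Bcam, the tetraspanin Cd151 and the adaptor Ilk. All 8 were found, of 48709 genes listed for each library, and all 8 passed the filter on low counts in every comparison. The rule uses names and no measured value, but the set was proposed with earlier results of these data known.

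Laminins are heterotrimeric proteins of the basement membrane, and muscle fibres hold on to them through dystroglycan and through integrins, which are pairs of an alpha and a beta subunit spanning the membrane. In skeletal muscle the Itga7 and Itgb1 products form the main laminin-binding integrin and sit at the fibre surface and at its junctions with tendon and nerve. The product of Itgb4 pairs with that of Itga6 alone and is known from the hemidesmosomes of epithelia and from myelinating Schwann cells, where it also binds laminin.

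RNA sequencing of quadriceps was read in 18 libraries, each labelled with a different animal number. The untreated mice, labelled 5 weeks old, were 4 dyW mice and 3 WT mice. The mice of the treatment cohort carry an age label of 3 weeks, although the tissue protocol gives 5 weeks for all, and they were 3 dyW mice given TD139, 3 dyW mice given PBS, 2 WT mice given TD139 and 3 WT mice given PBS. WT mice were C57BL/6J. dyW mice were of strain B6.129S1(Cg)-Lama2tm1Eeng/J, in which the gene of laminin alpha 2 is knocked out and which the submitters call hemizygotes, and serve as a model of LAMA2-deficient congenital muscular dystrophy. TD139 is an inhibitor of galectin-3, the product of Lgals3, and PBS was its vehicle; the labels used here give no dose, route or length of treatment. Each group held 1 female, and the rest were male. The design asks how dyW muscle differs from WT muscle and what TD139 changes in either.

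The libraries held 15814395 to 45249183 exon reads. Lama2, the targeted gene, had 0.545 to 0.831 RPKM in untreated dyW muscle and 4.46 to 5.02 RPKM in untreated WT muscle, so the genotype labels held, although reads over the gene remained in dyW libraries. Muscle identity also held, since Acta1, the skeletal actin gene, averaged 18139 ± 1891 RPKM in untreated dyW muscle (SD, n = 4) and 17724 ± 1465 RPKM in untreated WT muscle (SD, n = 3). One library stood apart: in WT PBS replicate 1 the 8 Schwann cell markers summed to 599 RPKM, against 9.5 to 129 RPKM in the other 17 libraries. Its endothelial sum (132 RPKM) and smooth muscle and pericyte sum (244 RPKM) were also the highest of all libraries. Fibroblast markers summed to 1106 RPKM, against 580 and 641 RPKM in the other WT PBS mice. Mature fibre markers summed to 47644 RPKM in this library, against 65849 and 69313 RPKM in those mice. The part of WT PBS replicate 1 in the tests between groups and in the correlations with markers was measured by leaving it out. The alpha subunit shares, group order, spans and profile correlations were not recomputed without it. The whole muscle was sequenced, so fewer cells of a type and less RNA per cell cannot be told apart.

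The bases upstream of the start site are shown for 3 genes that span the responses described below, namely Bcam, whose level differed most between untreated dyW and WT muscle, Cd151, which differed little, and Itgb1, which did not pass the test. They come from RefSeq on build GRCm38.p6, 5′ to 3′ on the gene's strand, and capitals mark the GC box GGGCGG on either strand. For Bcam the printed stretch is chr7:19770548-19770782 on the minus strand, for Cd151 chr7:141467112-141467361 on the plus strand and for Itgb1 chr8:128685404-128685653 on the plus strand.
Bcam: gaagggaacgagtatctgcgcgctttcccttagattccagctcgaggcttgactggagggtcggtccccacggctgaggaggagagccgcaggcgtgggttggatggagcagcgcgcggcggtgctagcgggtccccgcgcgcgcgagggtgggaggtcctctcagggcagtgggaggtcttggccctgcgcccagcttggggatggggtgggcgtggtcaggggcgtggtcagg
Cd151: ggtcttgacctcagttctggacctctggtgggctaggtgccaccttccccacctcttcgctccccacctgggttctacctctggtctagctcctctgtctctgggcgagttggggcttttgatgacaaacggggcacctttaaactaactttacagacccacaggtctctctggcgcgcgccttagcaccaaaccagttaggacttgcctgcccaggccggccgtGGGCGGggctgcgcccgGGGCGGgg
Itgb1: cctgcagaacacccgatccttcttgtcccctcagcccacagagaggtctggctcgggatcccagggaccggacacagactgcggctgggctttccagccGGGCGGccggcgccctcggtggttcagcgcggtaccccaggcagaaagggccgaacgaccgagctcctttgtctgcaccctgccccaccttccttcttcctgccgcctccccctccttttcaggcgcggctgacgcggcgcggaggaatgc
An upstream sequence was found for 5 of the 8 genes (Itga3, Itgb1, Bcam, Cd151 and Ilk); Itga6, Itga7 and Itgb4 had no entry in the table. The end of the Bcam window next to the start site and the whole Ilk window lie in annotated exons and are not printed.

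In windows of 250 bases, GGGCGG occurred in 32.7% of 32851 RefSeq windows. It matched 3 times in Itga3, 2 times in Cd151, 1 time in Itgb1 and not in Bcam or Ilk. The Bcam window also held no match to the E-box CANNTG (66.2% of windows), to CCAAT (33.8%), to TATAAA (12.4%), to the MCAT element CATTCC (12.6%) or to the CArG box (1.47%), each searched on both strands. All 5 windows were rich in G and C, at 70% in Bcam, 62.4% in Cd151, 68.0% in Itgb1, 67.6% in Itga3 and 66.4% in Ilk, against a median of 52.4%. The match counts describe these letters and show nothing about binding. The RefSeq start of Bcam lies 484 bases inside the gene span of the files.

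Untreated dyW muscle carried more mRNA of Bcam, Itgb4, Ilk, Itga7 and Cd151 than untreated WT muscle, relative to all other genes. Bcam was 3.67-fold and Itgb4 2.78-fold higher, while Ilk, Itga7 and Cd151 were 1.29-fold to 1.59-fold higher. Itga3, Itga6 and Itgb1 did not pass the test. In this comparison 24.7% of the 14846 genes tested rose by the same rule, an edgeR quasi-likelihood test on exon read counts with a Benjamini-Hochberg adjusted p under 0.05, and 25.1% fell. The median log2 fold change was 0.47 over the 8 genes and 0.03 over all genes tested.

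Among the 3 alpha subunits, Itga7 (chr10:128933813-128958277, plus strand in the files) had the highest RPKM. Its level was 48.9, 46.0, 43.2 and 34.1 RPKM in the 4 untreated dyW mice. The 3 untreated WT mice had 20.4, 18.9 and 20.1 RPKM. Every dyW mouse was above every WT mouse, and the 4th dyW mouse was the lowest of its group. Itga7 rose by a log2 fold change of 0.58 (SE 0.16, edgeR adjusted p = 0.016). Without untreated WT replicate 1 the adjusted p was 0.0542. Gene-level counts do not separate its splice forms, which differ in the laminin-binding and cytoplasmic parts.

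Itga6 (chr2:71745616-71858416, plus strand) encodes the alpha subunit that can pair with the product of Itgb1 or of Itgb4. It had 5.51, 5.84, 4.92 and 4.39 RPKM in untreated dyW muscle and 3.60, 2.71 and 2.73 RPKM in untreated WT muscle. These RPKM ranges did not overlap, but the levels after scaling between libraries did, and the log2 fold change of 0.24 (SE 0.14) did not pass the edgeR test (adjusted p = 0.181). Itga3 (chr11:95044474-95076801, minus strand), the alpha subunit of a laminin receptor best known from epithelia, was the scarcest of the alpha subunits. It had 1.64, 1.58, 1.99 and 1.42 RPKM in untreated dyW muscle and 0.866, 0.982 and 0.815 RPKM in untreated WT muscle. Its scaled levels overlapped between the groups as well (log2 fold change 0.34, SE 0.15, edgeR adjusted p = 0.0927).

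The beta subunits behaved unlike each other. Itgb1 (chr8:128685654-128733200, plus strand), the common partner of most alpha subunits, was the most abundant of the 8 genes per length. It had 93.1, 94.1, 88.6 and 85.3 RPKM in untreated dyW muscle and 61.5, 55.3 and 61.8 RPKM in untreated WT muscle. Scaled between libraries, the groups overlapped, at 8.19 to 8.48 log2 CPM in dyW and 8.18 to 8.36 log2 CPM in WT, and the log2 fold change was 0.06 (SE 0.13, edgeR adjusted p = 0.746).

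Itgb4 (chr11:115974709-116008412, plus strand) was far scarcer. It had 1.74, 2.20, 1.54 and 1.47 RPKM in untreated dyW muscle, from 393 to 684 reads. In untreated WT muscle it had 0.549, 0.439 and 0.310 RPKM, from 88 to 137 reads. Every dyW mouse lay above every WT mouse, and the log2 fold change was 1.47 (SE 0.23, edgeR adjusted p = 0.00107). The 8 Schwann cell markers moved the same way: 6 of 8 rose and none fell, with summed levels of 52.0 to 106 RPKM in untreated dyW muscle and 9.5 to 22.2 RPKM in untreated WT muscle, and their part in the Itgb4 result was not tested. Of the 7 epithelial markers, Krt5 had 0 reads, Krt14 3, Krt15 1 and Epcam 14 over all 18 libraries. Of the 3 that were tested 2 rose and none fell, where 24.7% of all genes rose. The 7 summed to 1.77 to 2.44 RPKM in untreated dyW muscle and 0.82 to 1.25 RPKM in untreated WT muscle. Their part in the Itgb4 result was not tested either.

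Bcam (chr7:19756131-19771016, minus strand) encodes the Lutheran glycoprotein, an immunoglobulin superfamily receptor for the laminin alpha 5 chain. It had 24.4, 26.7, 36.4 and 34.8 RPKM in untreated dyW muscle. The 3 untreated WT mice had 6.38, 5.44 and 5.25 RPKM. The groups stood far apart, with the lowest dyW mouse above the highest WT mouse. The log2 fold change of 1.87 (SE 0.14, edgeR adjusted p = 0.000122) stayed between 1.83 and 1.97 when any 1 mouse was left out. Lama5, the gene of that laminin chain, had a log2 fold change of 0.11 (SE 0.19, edgeR adjusted p = 0.654).

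Cd151 (chr7:141467392-141471473, plus strand) encodes a tetraspanin that binds laminin-binding integrins in the membrane. It had 36.0, 44.1, 50 and 40.5 RPKM in untreated dyW muscle and 25.1, 22.9 and 19.7 RPKM in untreated WT muscle. The groups did not overlap, and the log2 fold change was 0.37 (SE 0.12, edgeR adjusted p = 0.0324). That call was the least steady of the 5: the adjusted p was 0.0691 without untreated WT replicate 1, 0.139 without untreated WT replicate 3 and 0.0563 without untreated dyW replicate 3.

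Ilk (chr7:105736592-105742925, plus strand) encodes a pseudokinase that ties the beta subunit tail to actin together with PINCH and parvin. It had 35.7, 37.4, 40.7 and 37.7 RPKM in untreated dyW muscle and 18.4, 14.7 and 16.1 RPKM in untreated WT muscle. The groups did not overlap, and after scaling the 4 dyW mice lay within 6.50 to 6.53 log2 CPM, against 5.73 to 5.87 log2 CPM in the 3 WT mice. The log2 fold change was 0.67 (SE 0.10, edgeR adjusted p = 0.000838). Taf10, on the opposite strand, shares 2106 exon bases with Ilk, 76.7% of the Ilk exon bases in GENCODE M21, and Rrp8 shares 355. Whether strand was used in counting is not given in the sources used here, so reads of Ilk and of these neighbours cannot be told apart without it. Taf10 itself had a log2 fold change of -0.03 (SE 0.09) and Rrp8 of -0.08 (SE 0.11), neither past the test.

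**Figure D1:**
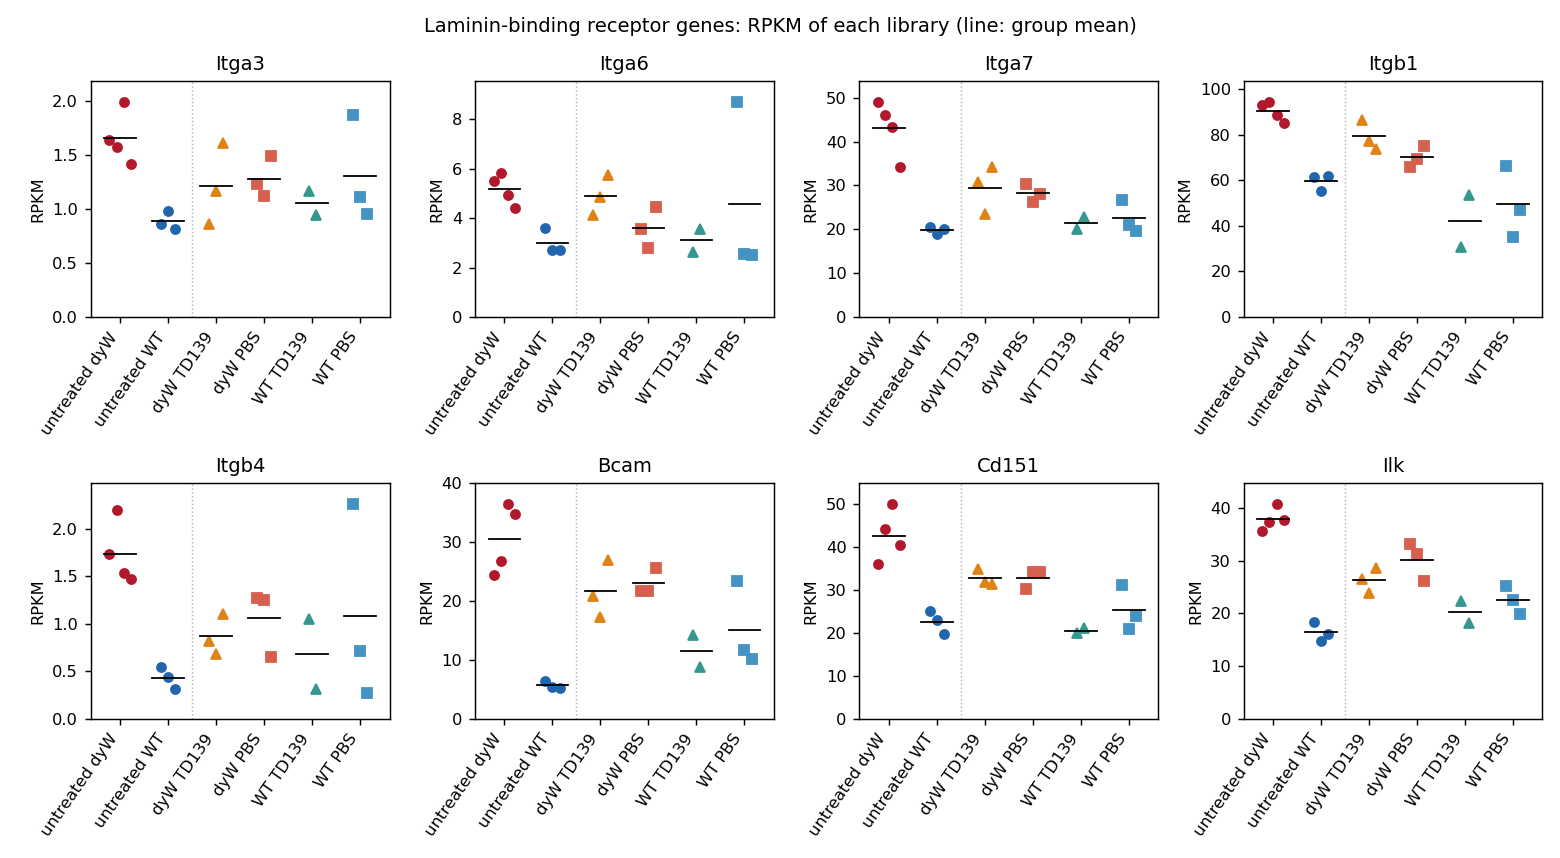
RPKM of the 8 genes (vertical axes, from 0, 1 panel a gene) in each of the 18 libraries, by group along the horizontal axis; each point is 1 mouse and each line a group mean. All 4 untreated dyW points lie above all 3 untreated WT points in every panel, and WT PBS replicate 1 is the highest of all libraries for Itga6 (8.68 RPKM) and Itgb4 (2.26 RPKM).

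RPKM divides by each library's own total, and most genes shifted on that scale. On RPKM values all 8 genes separated the untreated groups, as did 51.3% of the genes tested in the higher direction. On log2 CPM after TMM scaling 5 of the 8 did, against 28.0% of genes higher. With limma on log2(RPKM + 0.1) all 8 passed, but the median log2 fold change of all genes was then 0.51. Beside that median Itgb1 stood at 0.60, Itga6 at 0.76 and Itga3 at 0.83, while Bcam at 2.39, Itgb4 at 1.79, Ilk at 1.21, Itga7 at 1.1 and Cd151 at 0.91 lay further above it. The split of all called genes moved with the scale too, at 3671 higher and 3724 lower by edgeR and 7636 higher and 1293 lower by that limma fit.

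Ratios between the genes within a library do not depend on scaling between libraries. The log2 ratio of Bcam to Itga7 was -1.01, -0.79, -0.25 and 0.03 in untreated dyW muscle and -1.68, -1.80 and -1.94 in untreated WT muscle. Every dyW ratio was above every WT ratio. Which of both genes is higher within a library depends on the exon length used for Itga7, 4013 bases in the files and 8092 in GENCODE M21, while the difference between the groups does not. The difference of the means was 1.30, and the groups did not overlap (exact two-sided permutation test, p = 0.0571, and 0.4 adjusted over 35 ratio comparisons). That p is the smallest that this test, which doubles the smaller tail, allows for 4 against 3 mice.

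The log2 ratio of Itgb4 to its partner Itga6 was -1.66, -1.41, -1.68 and -1.58 in untreated dyW muscle, against -2.71, -2.62 and -3.14 in untreated WT muscle. Itga6 thus remained the more abundant partner in all 7 mice. The difference was 1.24, without overlap (the same smallest exact permutation p of 0.0571). Itga7 relative to Itgb1 and Ilk relative to Itgb1 also separated the untreated groups, with differences of 0.51 and 0.61. Itga6 relative to Itga7 differed by -0.33, lower in all untreated dyW mice. The ratios of Itga3 to Itga7 (difference -0.21) and of Cd151 to Itga7 (difference -0.19) overlapped between the groups.

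**Figure D2:**
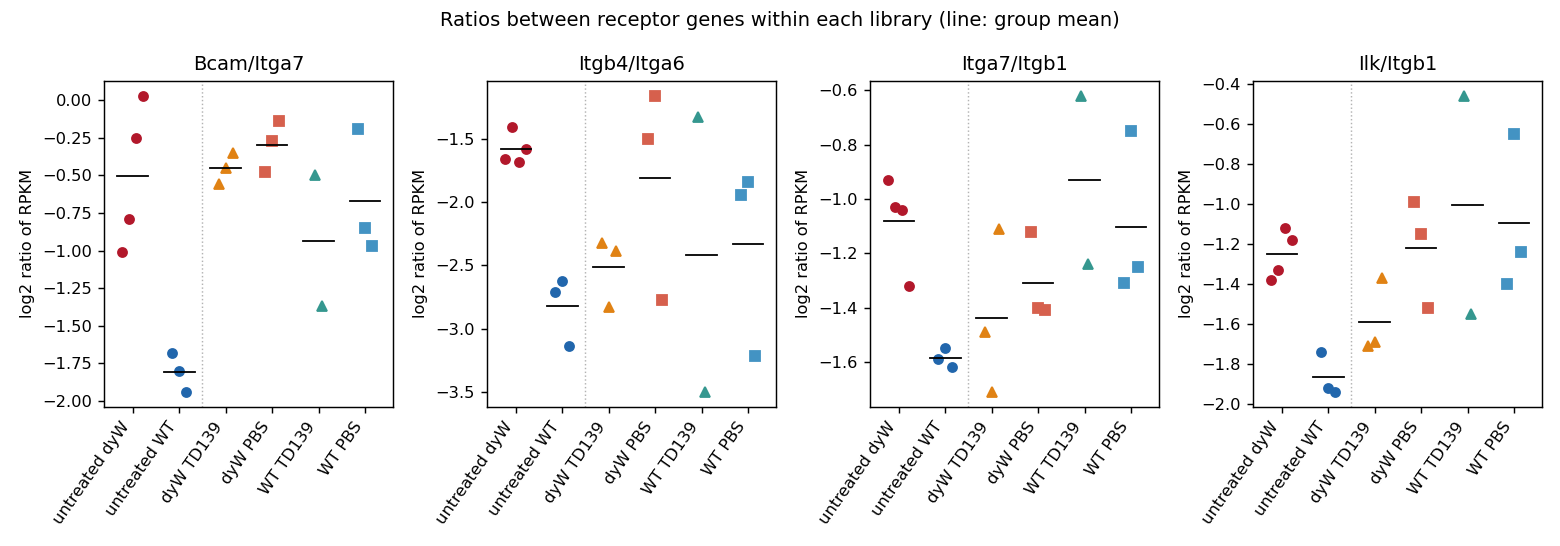
log2 ratio of RPKM between 2 receptor genes within each library (vertical axes), by group; each point is 1 mouse and each line a group mean. In all 4 panels the untreated dyW points lie above the untreated WT points, whereas the groups of the treatment cohort overlap widely.

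Of the summed RPKM of the 3 alpha subunits, with the exon lengths of the files, Itga7 made up 86.3% ± 0.75 in untreated dyW muscle (SD, n = 4) and 83.6% ± 1.5 in untreated WT muscle (SD, n = 3). Itga6 made up 10.4% ± 0.659 in untreated dyW muscle (SD, n = 4) and 12.7% ± 1.59 in untreated WT muscle (SD, n = 3). The Itga7 ranges did not overlap, at 85.4% to 87.3% in dyW and 82% to 85% in WT mice. Across all 18 libraries the Itga7 share was lowest in WT PBS replicate 1, at 71.7%, and it lay between 79.6% and 87.3% elsewhere.

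In the treatment cohort none of the 8 genes passed between dyW PBS and WT PBS muscle, where edgeR called 2.68% of 15331 genes, against 49.8% in the untreated comparison. At such a share a count of 0 among 8 says little about these genes. Lama2 was lower as in the untreated mice (log2 fold change -2.67, SE 0.28, edgeR adjusted p = 0.000912).

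Bcam had 21.6, 21.7 and 25.6 RPKM in dyW PBS muscle. WT PBS muscle had 23.4, 11.7 and 10.1 RPKM. The highest WT mouse was replicate 1, which lay among the dyW mice, and the other two were well below them. The log2 fold change was 0.37 (SE 0.27, edgeR adjusted p = 0.567), and 0.70 without WT PBS replicate 1 (SE 0.24, edgeR adjusted p = 0.138).

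Itgb4 had 1.27, 1.25 and 0.650 RPKM in dyW PBS muscle and 2.26, 0.709 and 0.268 RPKM in WT PBS muscle. The WT mice spanned the whole dyW range and more, with replicate 1 again on top. Its log2 fold change was -0.25 (SE 0.58), and 0.71 without that mouse (SE 0.51, edgeR adjusted p = 0.474). Itga6 had 3.58, 2.80 and 4.45 RPKM in dyW PBS muscle and 8.68, 2.53 and 2.50 RPKM in WT PBS muscle, and its log2 fold change likewise changed sign, at -0.55 with the mouse and 0.14 without it. Neither passed the test in either fit. The ratio of Bcam to Itga7 differed by 0.37 (exact two-sided permutation test, p = 0.3, where 0.1 is the smallest that 3 against 3 allows) and that of Itgb4 to Itga6 by 0.52 (exact p = 0.5), both with overlap.

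Ilk had 33.1, 31.2 and 26.1 RPKM in dyW PBS muscle and 25.1, 22.5 and 19.8 RPKM in WT PBS muscle. These ranges did not overlap, alone among the 8 genes, where 23.2% of all genes were higher without overlap on RPKM. The scaled difference was 0.13 (SE 0.14, edgeR adjusted p = 0.728). Itga7 had 30.3, 26.2 and 28.1 RPKM in dyW PBS muscle and 26.7, 21.0 and 19.7 RPKM in WT PBS muscle, a log2 fold change of 0.04 (SE 0.16). Cd151 had 30.2, 34.2 and 34.3 RPKM in dyW PBS muscle and 31.2, 21.0 and 24.0 RPKM in WT PBS muscle. Itgb1 had 65.8, 69.3 and 74.8 RPKM in dyW PBS muscle and 66.3, 35.3 and 46.9 RPKM in WT PBS muscle. Both groups overlapped through WT PBS replicate 1, the highest WT mouse for each gene. The remaining genes had log2 fold changes of -0.29 for Itga3 (SE 0.25), 0.10 for Cd151 (SE 0.16) and 0.23 for Itgb1 (SE 0.23).

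No change of the 8 genes with TD139 was detected. Between dyW TD139 and dyW PBS muscle edgeR called 0 of 15331 genes at an adjusted p under 0.05, a share of 0%, with 583 at an unadjusted p under 0.05, and DESeq2 called 2. The authors' deposited table for this comparison holds 68 genes at an FDR p under 0.05, none of them among the 8. The largest difference among the 8 genes was that of Itga6, at 4.11, 4.86 and 5.75 RPKM in dyW TD139 muscle and 3.58, 2.80 and 4.45 RPKM in dyW PBS muscle. The groups overlapped, and the log2 fold change was 0.48 (SE 0.36, edgeR adjusted p = 0.888). Bcam had 20.8, 17.2 and 26.9 RPKM in dyW TD139 muscle, within reach of the dyW PBS values above (log2 fold change -0.06, SE 0.27). Itga7, Cd151 and Ilk had log2 fold changes of 0.11, 0.03 and -0.15, with SE of 0.16, 0.16 and 0.14. Differences of the size seen for Itgb4 between individual mice could not be resolved, since its SE was 0.58.

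In WT mice TD139 was also followed by no call: edgeR called 0 of 15331 genes (0%) between WT TD139 and WT PBS muscle, with 304 at an unadjusted p under 0.05, and DESeq2 called 3. Log2 fold changes of the 8 genes ran from -0.47 for Itgb4 (SE 0.66) to 0.03 for Itga7 (SE 0.18), with 2 mice in the TD139 group. Without WT PBS replicate 1 the sign turned for 5 of them, to 0.50 for Itgb4 (SE 0.55), 0.31 for Itga6 (SE 0.25), 0.09 for Bcam (SE 0.26) and 0.04 for Itga3 and for Itgb1 (SE 0.29 and 0.27), none past the test. Cd151 had 19.9 and 21.1 RPKM in WT TD139 muscle and 31.2, 21.0 and 24.0 RPKM in WT PBS muscle. On log2 CPM it was lower without overlap, as were 4.98% of genes. These mice differed from each other, with Itgb1 at 30.9 and 53.5 RPKM, Itgb4 at 1.05 and 0.318 RPKM and Bcam at 14.2 and 8.79 RPKM. The first of them also had the higher Schwann cell marker sum, 129 RPKM against 21.8 RPKM in the other, and its part in these values was not tested. The difference of the TD139 effects between dyW and WT mice passed for 0 genes by edgeR (294 at an unadjusted p under 0.05) and for 1 by DESeq2, and not for any of the 8, with values from -0.11 for Ilk (SE 0.22) to 0.86 for Itga6 (SE 0.55). Without WT PBS replicate 1 Itga6 was at 0.17 (SE 0.32), and Itgb4 was at -0.73 (SE 0.70) in place of 0.24 (SE 0.87).

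Between dyW TD139 and WT TD139 muscle 1.04% of 15331 genes passed, and none of the 8. Bcam had a log2 fold change of 0.56 (SE 0.31, edgeR adjusted p = 0.399), Itgb1 of 0.57 (SE 0.26, edgeR adjusted p = 0.322) and Cd151 of 0.33 (SE 0.18, edgeR adjusted p = 0.392). The values of Bcam and Itgb1 moved with single WT TD139 mice: Bcam was at 0.96 without WT TD139 replicate 1 and at 0.25 without replicate 2. Itgb1 was at 0.23 without replicate 1 and at 1.01 without replicate 2. Itgb1 had 86.6, 77.1 and 73.9 RPKM in dyW TD139 muscle and 30.9 and 53.5 RPKM in WT TD139 muscle. Cd151 had 34.8, 31.9 and 31.5 RPKM in dyW TD139 muscle and 19.9 and 21.1 RPKM in WT TD139 muscle. Both separated the groups, also on log2 CPM, where 20% of genes were higher without overlap; on RPKM 6 of the 8 genes did, against 47.2% of all genes. On RPKM, with limma and a pseudocount of 0.1, Cd151 passed at 0.67 (adjusted p = 0.0485), where the median of all genes was 0.33. The comparisons of the treatment cohort share mice, since each of its 4 groups enters more than 1 of them.

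**Figure D3:**
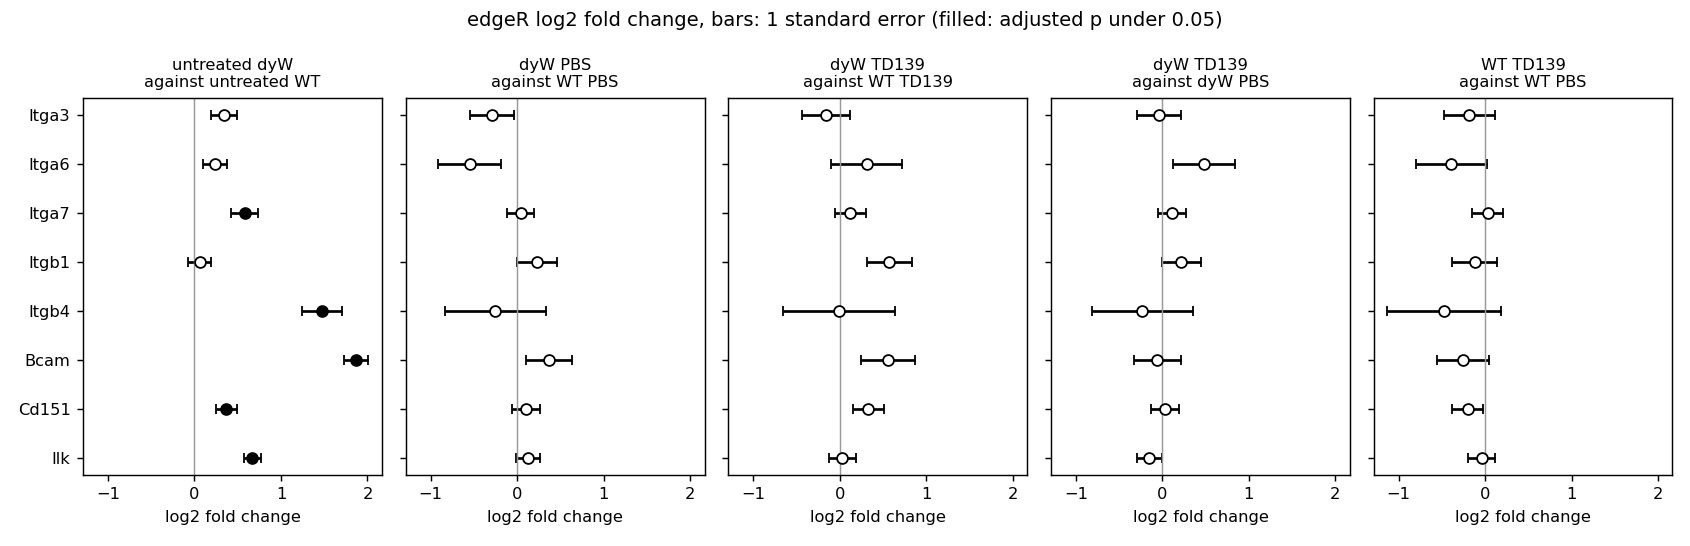
edgeR log2 fold changes (horizontal axis) of the 8 genes in 5 comparisons, 1 panel each; bars are 1 standard error and filled points have an adjusted p under 0.05. Bcam, Itgb4, Ilk, Itga7 and Cd151 are filled in the untreated comparison, and no point is filled in the 4 comparisons of the treatment cohort.

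The dyW effect on Bcam was larger in the untreated mice than in the mice given PBS. A fit of all 18 libraries gave a difference of the log2 fold changes of 1.49 (SE 0.33, edgeR adjusted p = 0.0402), and 0.526% of 15771 genes were higher by this test. Bcam was the only 1 of the 8 to pass. The alternatives were 7 other settings and 13 fits with 1 mouse left out, and the Bcam call was lost in 11 of them. Among these were both limma fits (adjusted p = 0.0539 and 0.0533) and the edgeR fit without WT PBS replicate 1, which gave 1.16 (SE 0.28, adjusted p = 0.0792). Every WT PBS mouse, at 10.1 RPKM or more, had a higher Bcam level than every untreated WT mouse, at 6.38 RPKM or less. In dyW mice the cohorts overlapped, at 21.6 to 25.6 RPKM in dyW PBS and 24.4 to 36.4 RPKM in untreated dyW muscle. Ilk had a difference of 0.52 (SE 0.16, edgeR adjusted p = 0.0847), Itga7 of 0.52 (SE 0.22, adjusted p = 0.175) and Itgb4 of 1.71 (SE 0.71, adjusted p = 0.166). Without WT PBS replicate 1 the Itgb4 difference was 0.75 (SE 0.58, adjusted p = 0.473). Cohort, injection and age label differ together here and cannot be told apart.

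Ordered over the 6 groups by RPKM, which is not scaled between libraries, untreated dyW muscle had the highest mean for all 8 genes. The share of all genes with that order was not computed. After scaling the order was not the same for every gene. Itga6 had 5.13 to 5.56 log2 CPM in untreated dyW and 5.25 to 5.69 log2 CPM in dyW TD139 muscle. Bcam averaged 30.6 ± 5.95 RPKM there (SD, n = 4), then 23 ± 2.26 in dyW PBS, 21.6 ± 4.88 in dyW TD139 and 15 ± 7.26 in WT PBS muscle (SD, n = 3 each). WT TD139 muscle followed at 11.5 ± 3.82 (SD, n = 2) and untreated WT muscle at 5.69 ± 0.603 (SD, n = 3). Only the last step of this order, from WT TD139 to untreated WT, was free of overlap between neighbours. For Itgb1 the lone step without overlap on RPKM separated dyW PBS (70 ± 4.54 RPKM) from untreated WT muscle (59.5 ± 3.69 RPKM), with all 3 dyW groups above all 3 WT groups in mean RPKM. After scaling, dyW PBS and untreated WT overlapped for Itgb1, at 7.90 to 8.32 and 8.18 to 8.36 log2 CPM. Cd151 had 2 such steps on RPKM, below untreated dyW muscle (42.7 ± 5.93 RPKM) and between dyW TD139 (32.7 ± 1.78 RPKM) and WT PBS muscle (25.4 ± 5.25 RPKM). Both overlapped on log2 CPM: dyW PBS reached 6.62 and untreated dyW began at 6.54, and WT PBS reached 6.51 and dyW TD139 began at 6.42. Ilk had 1 on RPKM, below untreated dyW muscle (37.9 ± 2.07 RPKM), and Itga3, Itga6, Itga7 and Itgb4 had none.

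Over the 18 libraries the RPKM span was widest for Itgb4, at 8.43-fold from lowest to highest, and for Bcam, at 6.94-fold. The others spanned 2.45-fold for Itga3 to 3.47-fold for Itga6. On RPKM Itgb4 and Itga6 both peaked in WT PBS replicate 1, a WT mouse, while the remaining genes peaked in untreated dyW mice.

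Correlations of log2 RPKM with the log2 summed RPKM of markers of other cells were computed for 88 pairs of a gene and a marker list. Itgb4 and the Schwann cell marker sum had r = 0.88 over the 8 WT libraries, 0.70 without WT PBS replicate 1 and 0.78 over the 10 dyW libraries. Itga6 and the endothelial marker sum had r = 0.89 over the 8 WT libraries, 0.17 without WT PBS replicate 1 and 0.65 over the 10 dyW libraries. Bcam and the regenerating fibre marker sum had r = 0.79 over both the 8 WT and the 10 dyW libraries, and Bcam also had r = 0.97 with Schwann cell, 0.95 with smooth muscle and 0.89 with endothelial markers over the WT libraries, and 0.56, 0.47 and 0.71 over the dyW libraries. Other genes of the set came as close. With Schwann cell markers Itga3 and Ilk had r = 0.92 each over WT libraries, and 0.33 and 0.72 over dyW libraries. With endothelial markers Itga7 had 0.93 and Itga3 0.91 over WT libraries, and 0.46 and 0.85 over dyW libraries. Ilk had 0.80 with regenerating fibre markers over WT and 0.90 over dyW libraries. Other lists came as close or ran the other way. Itga6 had 0.86 with fibroblast markers over WT libraries, 0.65 without WT PBS replicate 1 and -0.15 over dyW libraries. Itgb4 had r = 0.86 with macrophage markers over the dyW libraries and -0.51 over the WT libraries. With regenerating fibre and fibroblast markers it had 0.75 each over the dyW libraries, and 0.35 and 0.31 over the WT libraries. Bcam had r = -0.82 with macrophage and 0.79 with blood cell markers over the WT libraries, and 0.60 and -0.40 over the dyW libraries. The pairs were picked after their values were seen, the points share library depth and group, and no p is given.

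Summed RPKM of several lists was higher in untreated dyW than in untreated WT muscle, on a scale where 51.3% of all genes were higher without overlap, and by edgeR 24.7% of all genes rose and 25.1% fell. All 6 regenerating fibre markers and 6 of 7 macrophage markers rose, whereas 3 of 7 fibroblast and 2 of 4 perineurial markers rose, and of 5 satellite cell markers 1 rose and 2 fell. The 7 macrophage markers summed to 313 to 374 RPKM in untreated dyW muscle and 42.5 to 66.6 RPKM in untreated WT muscle. The 6 regenerating fibre markers summed to 146 to 249 RPKM in untreated dyW muscle and 6.17 to 14.9 RPKM in untreated WT muscle. The 8 endothelial markers summed to 84.6 to 105 RPKM in untreated dyW muscle and 44.2 to 56.4 RPKM in untreated WT muscle, and 4 of them rose. Of 7 mature fibre markers 4 fell, and their sum was 35062 to 45160 RPKM in untreated dyW muscle and 46890 to 59883 RPKM in untreated WT muscle. Of 7 smooth muscle and pericyte markers 4 rose and 1 fell. They summed to 144 to 206 RPKM in untreated dyW muscle and 82.3 to 117 RPKM in untreated WT muscle. The part of these cells in the changes of Bcam, Itgb4, Ilk, Itga7 and Cd151 was not tested.

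**Figure D4:**
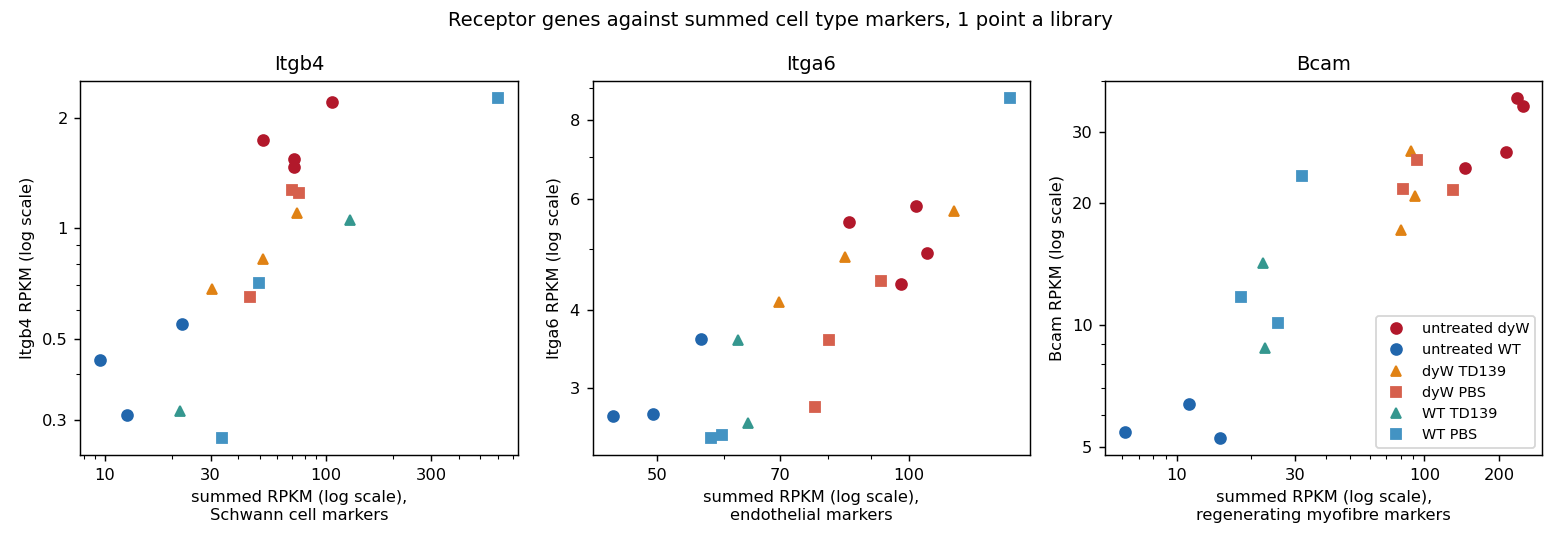
RPKM of Itgb4, Itga6 and Bcam (vertical axes, log scale) against the summed RPKM of Schwann cell, endothelial and regenerating fibre markers (horizontal axes, log scale), 1 point a library. WT PBS replicate 1, at a Schwann cell marker sum of 599 RPKM, is the rightmost point for Itgb4 and the uppermost for Itga6, and untreated dyW and untreated WT mice sit at opposite ends for Bcam.

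The wider adhesion pathway was described by 10 lists of 76 genes, of which 74 were listed in the files and 71 tested; Itgam and Tgfb1i1 are not analysed here. In untreated dyW against untreated WT muscle 29 of the 71 rose and 16 fell, against 24.7% and 25.1% of all genes. Of 13 other integrin alpha subunits 6 rose and 3 fell. Itgax, of a leukocyte integrin, rose most (log2 fold change 3.44, SE 0.25), Itga5, of a fibronectin receptor, rose by 1.30 (SE 0.13), and Itga4 fell by 2.38 (log2, SE 0.25). Of 6 other beta subunits 2 rose and 1 fell: Itgb2, the leukocyte beta subunit, rose by 1.98 (SE 0.26), Itgb7 rose by 1.46 (SE 0.26) and Itgb6 fell by 0.90 (SE 0.17).

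Of 6 partners of Ilk, 2 passed, both higher: Parva, a widely expressed parvin, at 0.62 (SE 0.11) and Parvg, the parvin of leukocytes, at 1.81 (SE 0.34); Rsu1, which binds PINCH, had -0.15 (SE 0.12). Of 9 talin, kindlin and vinculin linkers 3 rose and 3 fell. Tns3, a tensin, rose by 1.30 (SE 0.12), whereas Tln2, the talin of mature muscle, fell by 1.68 (SE 0.24) and Fermt2, a kindlin, fell by 1.11 (SE 0.21). Of 7 focal adhesion kinases and adaptors 3 rose, among them the kinases Ptk2b at 2.43 (SE 0.31) and Fyn at 0.78 (SE 0.15), and 3 fell, among them the adaptor Crk at -0.49 (SE 0.13). Of 5 binders of the Itgb1 tail Acap1 rose (1.33, SE 0.39), Krit1 fell (-0.65, SE 0.10), and Sharpin had -0.11 (SE 0.11).

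Of 8 other tetraspanins, the family of Cd151, 7 rose and none fell, with a median of 1.33. Cd9 rose by 1.32 (SE 0.13), Cd53, a leukocyte tetraspanin, by 1.71 (SE 0.18) and Tspan4 by 1.70 (SE 0.19). Among the laminins themselves 3 of 10 tested chains rose and 3 fell. Lama2 fell by 3.29 (SE 0.19), while Lama4, a chain of vessel basement membranes, rose by 0.82 (SE 0.11) and Lamb1 by 0.77 (SE 0.11). Of the 3 hemidesmosome genes, whose products meet that of Itgb4 in epithelia, none rose: Dst fell by 2.11 (SE 0.23), Col17a1 had 0.50 (SE 0.32) and Plec had -0.18 (SE 0.22). Of the 4 other laminin receptors Sdc1 (1.52, SE 0.23) and Sdc4 (0.88, SE 0.18), both syndecans, rose, and Dag1, the dystroglycan gene, fell by 0.71 (SE 0.23).

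**Figure D5:**
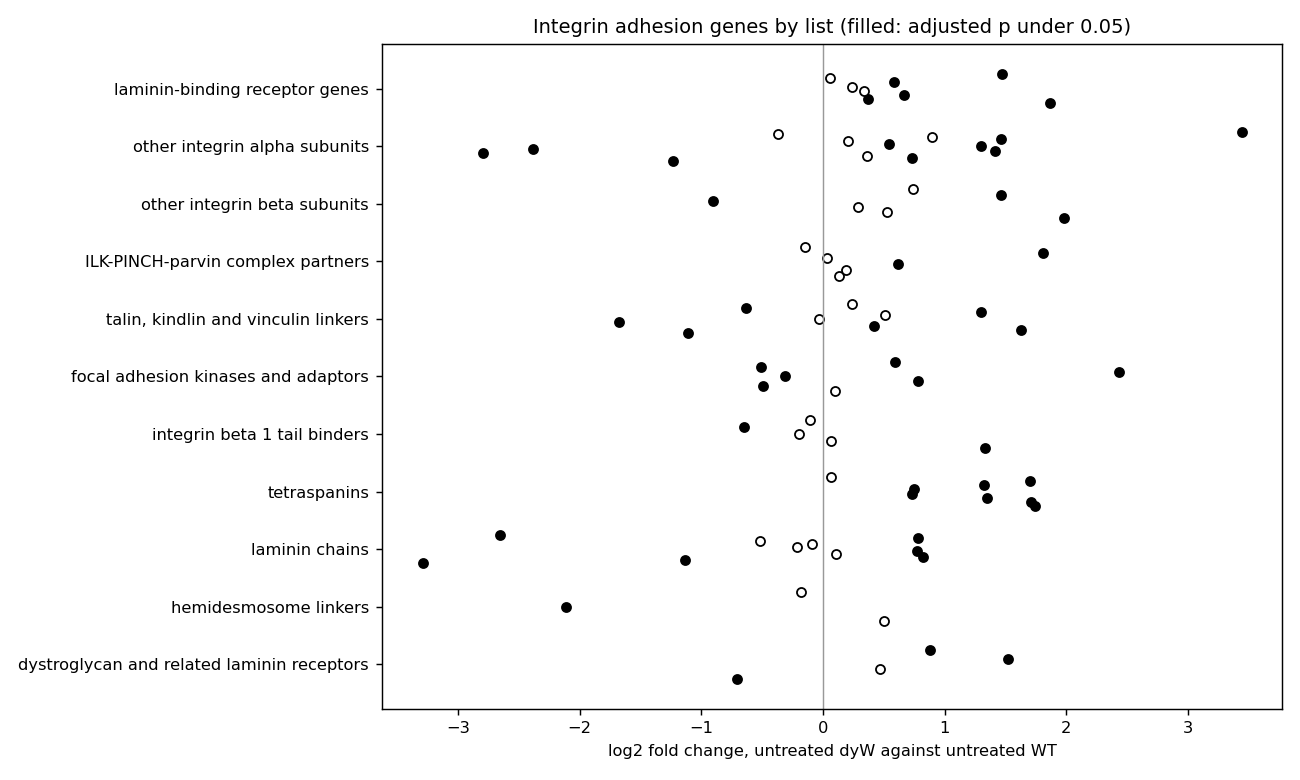
edgeR log2 fold changes in untreated dyW against untreated WT muscle (horizontal axis) of each tested gene in the 8-gene set and in the 10 adhesion lists; filled points have an adjusted p under 0.05. The receptor genes lie between 0.06 and 1.87, whereas most of the other lists, though not the tetraspanins, hold genes on both sides of 0.

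In dyW PBS against WT PBS muscle 4 of the 71 pathway genes passed, where 2.68% of all genes did. Itgax (2.51, SE 0.44), Itgb2 (1.57, SE 0.34) and Cd53 (1.91, SE 0.38) were higher and Lama2 was lower. Without WT PBS replicate 1 the count was 7, at 5 higher and 2 lower, and no beta subunit was among them. Over all genes the calls ran from 125 to 601 with 1 mouse left out, against 411. In dyW TD139 against WT TD139 muscle, where 1.04% of all genes passed, Lamc3 (-2.88, SE 0.58) and Lama2 (-2.17, SE 0.29) were lower. TD139 against PBS gave no call in either genotype. In the difference between cohorts, where 1.72% of all genes passed, Itga4 (-1.82, SE 0.45) and Tspan4 (1.16, SE 0.26) did. Without WT PBS replicate 1 the count was 0 of the 71, where all-gene calls ran from 0 to 637 with 1 mouse left out.

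Genes with the most similar profile across the 18 libraries were found by the correlation of log2 CPM among 10034 genes, as a description, since the libraries share group and depth. They were Pcgf2 (r = 0.93) and Cul7 (r = 0.93) for Bcam, St6gal1 (0.90) and Ndrg1 (0.90) for Itgb4, Cyyr1 (0.92) and Secisbp2l (0.89) for Itga6, and Capn2 (0.88) and Esyt1 (0.87) for Itga7. For Itgb1 they were Tmem167b (0.95) and Ttl (0.94), for Ilk Atp1b3 (0.94) and Pld3 (0.93), for Cd151 Ash2l (0.88) and Plpp1 (0.88), and for Itga3 Kifc3 (0.84) and Adgrg1 (0.81). Within groups, taken as deviations from the group means, r was 0.86 for both Itgb4 relatives and 0.93 for both Itga6 relatives, and 0.57 and 0.67 for those of Bcam. These values were not recomputed without WT PBS replicate 1. It lay apart within its group for Itga6, at 6.39 log2 CPM against 4.89 and 4.92, and for Itgb4, at 4.08 log2 CPM against 2.70 and 1.36. Among the 8 genes themselves Bcam and Ilk were the most alike (r = 0.87, and 0.35 within groups).

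The authors' deposited table of dyW against WT gave log2 fold changes of 1.85 for Bcam (FDR p = 2.58e-25), 1.45 for Itgb4 (FDR p = 1.73e-08), 0.64 for Ilk (FDR p = 0.000442) and 0.55 for Itga7 (FDR p = 0.0312). In the authors' deposited table Cd151 had 0.34 with an FDR p of 0.135, on the other side of the threshold from the edgeR result above. The authors' deposited table of TD139 against PBS in dyW mice called none of the 8; its lowest FDR p among them was 0.777, for Itga6 at 0.48.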

How the data were processed

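Quadriceps RNA was sequenced with a stranded mRNA kit as 58 bp read pairs, per the labels' protocols, and the submitters' processing notes name build mm10; aligner, counter and use of strand are not given in the sources used here. Each library's deposited file lists total exon read counts, unique exon reads and RPKM per gene. The authors' RPKM divide the exon read count by exon length and by a library total that the file values return; 92.55% of it was exon reads in untreated WT replicate 1. The authors' 2 deposited comparison tables hold log2 fold changes, p-values and FDR p-values. Exon read totals were 15814395 to 45249183 a library, with 97.97% to 98.39% of reads unique; the lowest counts were 74 for Itgb4 and 121 for Itga3, where counting error weighs most.

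Total exon read counts as deposited were tested with edgeR 4.0.16 (quasi-likelihood, TMM, filterByExpr with a minimum count of 10 and a minimum total of 15, Benjamini-Hochberg over all genes tested, threshold 0.05). The 7 untreated libraries, the 11 libraries of the treatment cohort and, for the difference between cohorts, all 18 were fitted without covariates. SE is the log2 fold change divided by the root of the F statistic. Log2 CPM used TMM and a prior count of 2. Subunit ratios of RPKM were compared by exact two-sided permutation tests (scipy 1.17.1), whose p is the smaller tail doubled. Alternatives were DESeq2 1.42.0, limma 3.58.1 on log2(RPKM + 0.1) and log2(RPKM + 1), RLE size factors, no filter, unique reads, sex as a term, other sample sets and leaving out each library. The edgeR step was also run on simulated counts with few changed genes and a fixed dispersion, and no result here rests on that run. It does not cover a setting like the untreated comparison, where 49.8% of genes were called. Named pathway genes were up to 3 with the smallest p in the untreated comparison in each list, and any past the threshold in another; the most similar genes were the 2 with the highest r and a mean of at least 1 RPKM; Lama5, Taf10, Rrp8 and Acta1 were chosen after their values were seen. Upstream windows came from RefSeq (GRCm38.p6) and overlaps from GENCODE M21. For Itga7 the files' exon length is 4013 bases and that of M21 is 8092, so its RPKM depends on the annotation. The 8 genes and all lists were chosen with earlier results of these data known. Libraries carry different animal numbers, so p-values measure the spread between mice.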

Additional observations from a re-analysis of the deposited data

Results flagged for a closer look

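The dyW effect on Bcam differed between the 2 cohorts by 1.49 on the log2 scale (SE 0.33, edgeR adjusted p = 0.0402, all 18 libraries in 1 fit), larger in the untreated mice. It was 1.87 in the untreated mice, where all 4 dyW mice lay above all 3 WT mice, and 0.37 in the mice given PBS, where the groups overlapped. The alternatives were 7 other settings and 13 fits with 1 mouse left out, and the call was lost in 11 of them. One was the edgeR fit without WT PBS replicate 1, which gave 1.16 (adjusted p = 0.0792). Cohort, injection and age label cannot be told apart.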

How the results depend on the processing

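No paired analysis was possible because every mouse has its own number in the labels and replicate numbers were given in accession order. Of the 8 genes, the number past the threshold in untreated dyW against untreated WT muscle was 5, 8 with limma on log2(RPKM + 0.1) and 8 on log2(RPKM + 1), and 3 to 5 when 1 mouse was left out, the 3 being without untreated WT replicate 1. In dyW TD139 against WT TD139 muscle it was 0, and 1 with limma at a pseudocount of 0.1. For the difference between cohorts it was 1, 0 and 0 with limma, 2 with DESeq2 (Bcam, and Ilk at 0.57) and 0 to 1 with 1 mouse left out. Among alternative values of the 8 genes, 820 kept direction and call, 15 lost a call, 8 gained one, 53 changed sign with neither value called and 0 reversed a call. Over all genes, dyW PBS against WT PBS gave 411 calls, 952 and 814 with limma, 840 with DESeq2, 656 with all 18 libraries, 193 with the 2 groups alone and 125 to 601 with 1 mouse left out. TD139 against PBS gave 2 calls in dyW and 3 in WT mice by DESeq2, and the difference of TD139 effects 1. dyW TD139 against WT TD139 gave 160, 320 without the filter, 552 and 296 with limma, 723 with DESeq2, 431 with all 18 libraries, 432 with the 2 groups alone and 6 to 91 with 1 mouse left out. The difference between cohorts gave 272, 75 and 111 with limma, 1216 with DESeq2 and 0 to 637 with 1 mouse left out. The split of calls moved with scaling: untreated, 3671 higher and 3724 lower, against 7636 and 1293 with limma on RPKM + 0.1 (7434 and 1288 with + 1); dyW TD139 against WT TD139, 116 and 44, against 519 and 33 (274 and 22); between cohorts, 83 and 189, against 46 and 29 (68 and 43), 91 and 130 with RLE size factors, 116 and 130 without the filter and 562 and 654 with DESeq2. Where 1 WT TD139 mouse remained, the edgeR fits assumed that it varies like the other groups. The dyW TD139 against WT TD139 log2 ratios were then values with no test and ran from -1.18 to 0.98 for Itgb4/Itga6, from -1.13 to -0.04 for Ilk/Itgb1 and from 0.05 to 0.91 for Bcam/Itga7. Added after seeing the data, the pathway count in dyW PBS against WT PBS muscle was 7 without WT PBS replicate 1, against 4. The cause of these shifts was not tested. Depth limits Itgb4 most, and 2 to 4 mice a group limit every exact test.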
